A study of Homo sapiens with 9 samples.

Results

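Epithelial cells are held together by adherens junctions, tight junctions and desmosomes, and their keratin filaments are anchored at the desmosomes. Messenger RNAs of 39 genes of these structures, with epithelial surface, splicing and transcription genes, were followed in MDA-MB-231 cells, a triple-negative breast cancer line of mesenchymal appearance. All 39, the members, were chosen by name from 26364 genes listed in the count data, with earlier results of these data known. They comprised 3 genes of adherens junctions, 10 of tight junctions, 6 of desmosomes and 9 keratins. A further 2 encode splicing factors, 3 a surface protease and its inhibitors, 3 surface glycoproteins and 3 a transcription factor, a trafficking protein and an envelope protein. There were 9 RNA libraries of this line. A clone with a control shRNA (shNT) gave 3, a clone stably silenced for GLO1 (shGLO1#1) gave 3 and another such clone (shGLO1#2) gave 3. GLO1 encodes the enzyme that detoxifies methylglyoxal (MG), a reactive product of glycolysis, and the comparison asks what changes when this enzyme is depleted. Each condition is 1 clone, so p-values speak of the scatter among libraries within a clone, which may be technical, and not of scatter among clones.

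E-cadherin, the product of CDH1, joins neighboring cells at the adherens junction, where p120-catenin (CTNND1) stabilizes it and PLEKHA7 links the complex to microtubules. Claudins and occludin form the seal of the tight junction, and the ZO proteins (TJP1, TJP3) and cingulin (CGN) fasten it to actin. In desmosomes, the cadherins DSG2 and DSC2 bind plakoglobin (JUP) and plakophilins, and desmoplakin (DSP) ties these to keratins, which are built from type I and type II chains in pairs such as KRT18 with KRT8. ESRP1 and ESRP2 direct epithelial forms of alternative splicing. Loss of these genes is a hallmark of epithelial-mesenchymal transition, and MDA-MB-231 cells are known for low E-cadherin.

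GLO1 mRNA matched the label of every library. It was 323, 312 and 317 CPM in the shNT libraries of replicates 1, 2 and 3, 64.2, 65.9 and 65.9 in shGLO1#1 and 14.6, 15.5 and 14 in shGLO1#2. CPM are counts scaled to a common library size, with TMM factors. The libraries held 15314238 to 18495576 counts on genes, so that 1 count was worth 0.0544 to 0.0672 CPM. The mesenchymal markers VIM, CD44, CAV1, AXL and ZEB1 were present throughout and 0 of 5 passed both limits in any comparison by edgeR's test or DESeq2. By edgeR's adjusted p alone, ZEB1 was higher in shGLO1#1 (log2 fold change 0.33, adjusted p = 6.95e-04), beside 22.6% of all genes higher and 23.1% lower. In shGLO1#2, VIM was higher (0.32, adjusted p = 0.00191) and CD44 lower (-0.26, adjusted p = 0.00681), beside 18.3 and 19.8%. Between the clones, 1 was higher and 3 lower in shGLO1#2, beside 22.8 and 23.7%. The summed level of the 5 markers was 5584 to 6117 CPM in shNT, 5386 to 5993 in shGLO1#1 and 6434 to 6696 in shGLO1#2. Of 9 markers of luminal breast epithelium, 6 had enough counts. Against shNT, 3 were called in shGLO1#1 (8.73% of all genes were), where TFF1, TFF3 and GREB1 were higher. In shGLO1#2, 1 was called (background 7.68%), where GREB1 was higher. SPDEF lay below every shNT library in shGLO1#2, at a log2 fold change of -0.97. Between the clones, SPDEF (-1.15) and TFF1 (-1.28) were called lower in shGLO1#2 (background 7.09%). The summed level of the 9 markers was 128 to 165 CPM in shNT, 151 to 159 in shGLO1#1 and 88.1 to 138 in shGLO1#2, and PGR was at 0 in shNT. Of 7 markers of blood, vessel and liver cells, 3 had enough counts. PTPRC was lower and PECAM1 higher in each clone, and HBB was at 0 in all libraries. VWF had 7 counts in shNT, 11 in shGLO1#1 and 42 in shGLO1#2. It had enough counts only through shGLO1#2, where it is high, so it gets no test here. The summed level of the 7 markers was 7.43 to 10.8 CPM in shNT, 4.08 to 4.79 in shGLO1#1 and 5.42 to 8.22 in shGLO1#2. The part of these markers in the results was not tested.

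Far more of these epithelial genes were lower than higher in the GLO1-depleted clones. The list was chosen with earlier results of these data known, so its shares below are not independent of that choice. Of the 39, 34 had enough counts to be tested, and calls needed both an adjusted p below 0.05 in edgeR's quasi-likelihood test, the source of every p here, and a log2 fold change beyond 1 in size. In shGLO1#1, 10 were called (8.73% of all genes tested were), of which 9 were lower and 1 was higher than in shNT. The shares were 26.5 and 2.94% of the 34, beside 2.75% lower and 5.98% higher among the 13704 genes tested. In shGLO1#2, 12 were called (background 7.68%), of which 11 were lower and 1 was higher, which is 32.4 and 2.94%, beside 2.59 and 5.09% of all genes tested. The median log2 fold change of the 34 was -0.36 in shGLO1#1 and -0.44 in shGLO1#2, with 0.0013 and 0.0012 over all genes. Both comparisons use the same shNT libraries. Between the clones, 10 of the 34 were called (background 7.09%), 4 higher and 6 lower in shGLO1#2 than in shGLO1#1 (11.8 and 17.6%, beside 3.33 and 3.75% of all genes). Genes that passed the limit on low counts in 1 group alone had to differ, here as among all genes. SCEL, counted in shGLO1#2 and between the clones, was near this limit and passed it only in the groups where it is higher.

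With the fold change limit dropped, shifts against shNT were still mostly toward lower levels. These counts include the genes called above. By adjusted p alone, 18 of the 34 were lower and 3 higher in shGLO1#1, beside 23.1 and 22.6% of all genes (45.7% in either direction). In shGLO1#2, 24 were lower and 2 higher, beside 19.8 and 18.3% (38.1% together). Between the clones, 10 were lower and 7 higher in shGLO1#2, beside 23.7 and 22.8% (46.5% together). All 3 libraries of shGLO1#1 lay below all of shNT for 18 members and above for 3, beside 28% of all genes each way. For shGLO1#2 these numbers were 25 and 2, beside 24.3 and 23%. Libraries of shGLO1#2 lay below those of shGLO1#1 for 10 members and above for 8, beside 28.5 and 26.9%.

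**Figure D1:**
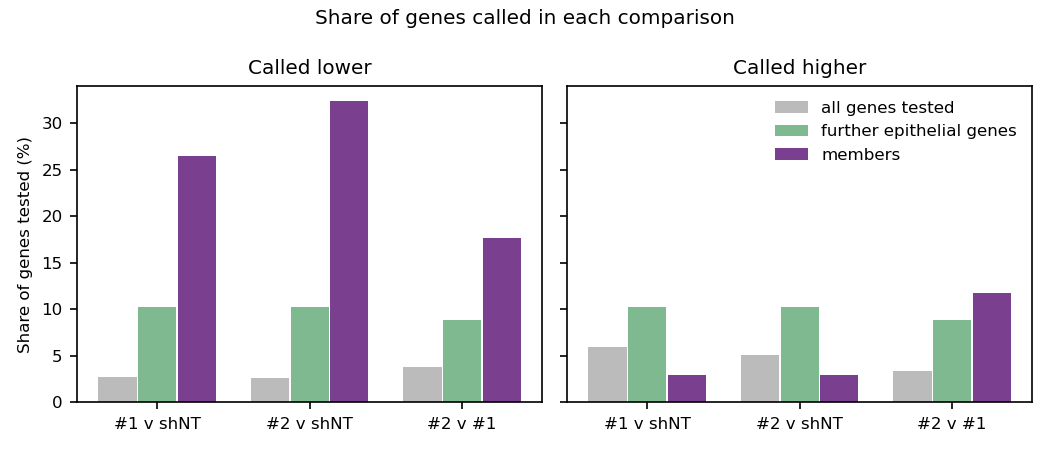
Share of the genes tested (y axis, %) that were called lower (left) or higher (right) in the comparisons of shGLO1#1 (#1) and shGLO1#2 (#2) with shNT and with each other (x axis). Bars stand for all 13704 genes tested, 68 further epithelial genes and the 34 epithelial members, whose lower share was 26.5% in shGLO1#1 and 32.4% in shGLO1#2, beside 2.75 and 2.59% of all genes. The members were chosen with earlier results of these data known.

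**Figure D2:**
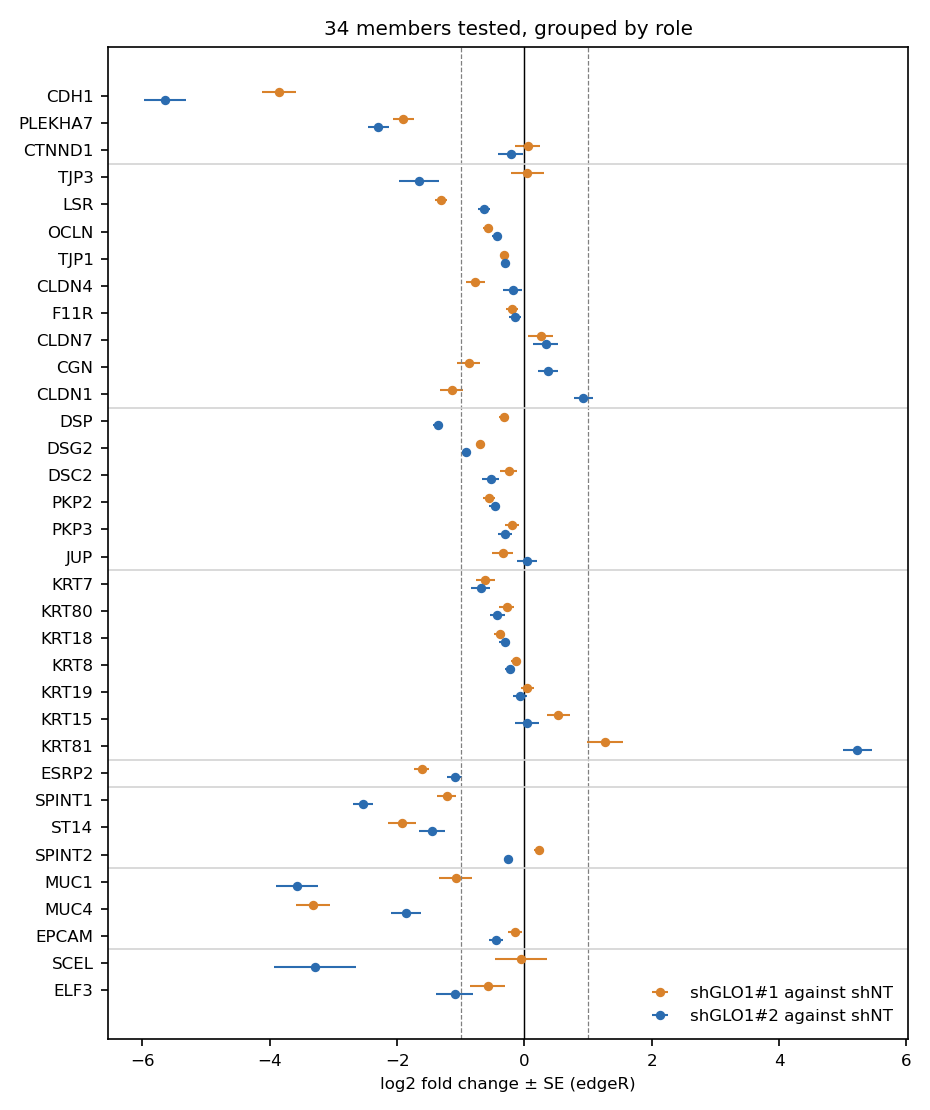
Log2 fold change with SE (x axis) of the 34 members tested (y axis), in blocks of adherens junction, tight junction, desmosome, keratin, splicing, surface protease system, surface glycoproteins and the remaining genes, for shGLO1#1 (orange) and shGLO1#2 (blue) against the same shNT libraries. Dashed lines mark the limit of 1, which CDH1 passes on the left at -3.85 and -5.64 and KRT81 on the right at 1.26 and 5.23.

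Promoter sequences of RefSeq (GRCh38.p14, 250 bases before to 50 after the gene start) were matched by symbol for 21 of the 39 genes. They were searched for the E-box CACCTG, whose reverse complement is CAGGTG, since repressors of E-cadherin such as SNAI1 and ZEB1 are known to bind it. It was in 10 of the 21 (47.6%) and in 20.6% of 35116 promoters of the same length. The median GC content was 64.3% for the 21 and 58.7% for all. Of the 9 matched genes that were called lower in a clone, 3 held it (33.3%), and of the other 12, 7 did (58.3%). The other 12 include CLDN3, KRT5 and RAB25, which hold the E-box but had too few counts to be tested. These could not be called lower, so the shares do not compare like genes. Only 3 of the 7 genes called lower in both clones had a matched promoter. CDH1 itself, PLEKHA7, ESRP2 and ST14 had none, so these numbers do not cover them. Shown are 4 promoters of genes called lower in at least 1 clone, DSP and MUC1, which hold the E-box (in capitals, on either strand), and MUC4 and SPINT1, which do not. The sequences are reference sequences and not of these cells, and a match is no evidence of binding.
MUC1 (chr1:155192866-155193165, minus strand): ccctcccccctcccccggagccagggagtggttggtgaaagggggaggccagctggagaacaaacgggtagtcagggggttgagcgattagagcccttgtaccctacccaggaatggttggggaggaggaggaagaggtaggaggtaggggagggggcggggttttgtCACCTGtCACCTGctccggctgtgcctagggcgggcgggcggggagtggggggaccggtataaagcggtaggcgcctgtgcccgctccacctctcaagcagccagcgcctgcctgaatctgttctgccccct
DSP (chr6:7541421-7541720, plus strand): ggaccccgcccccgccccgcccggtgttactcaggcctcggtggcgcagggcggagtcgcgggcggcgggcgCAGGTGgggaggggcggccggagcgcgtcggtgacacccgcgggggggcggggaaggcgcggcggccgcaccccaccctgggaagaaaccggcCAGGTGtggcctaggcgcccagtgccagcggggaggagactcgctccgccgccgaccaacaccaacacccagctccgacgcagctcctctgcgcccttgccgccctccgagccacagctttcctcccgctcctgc
MUC4 (chr3:195811880-195812179, minus strand): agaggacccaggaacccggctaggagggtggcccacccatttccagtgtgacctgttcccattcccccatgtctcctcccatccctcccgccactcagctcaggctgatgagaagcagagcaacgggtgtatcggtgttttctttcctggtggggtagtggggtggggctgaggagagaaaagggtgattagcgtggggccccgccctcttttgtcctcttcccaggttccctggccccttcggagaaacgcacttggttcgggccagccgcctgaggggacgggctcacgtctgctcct
SPINT1 (chr15:40843798-40844097, plus strand): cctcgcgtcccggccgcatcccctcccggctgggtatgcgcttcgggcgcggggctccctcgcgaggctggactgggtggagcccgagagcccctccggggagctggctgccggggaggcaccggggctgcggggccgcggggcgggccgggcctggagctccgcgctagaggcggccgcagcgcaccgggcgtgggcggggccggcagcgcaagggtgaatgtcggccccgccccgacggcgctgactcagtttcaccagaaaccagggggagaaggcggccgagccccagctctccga
In MUC1 the pair of E-boxes begins 82 and 75 bases before the start, next to each other. In DSP they begin 178 and 85 bases before it. SPINT1 had a GC content of 77.7% and 38 CpG sites in the window, DSP 77.0% and 37, MUC1 65.7% and 13, and MUC4 62.0% and 12.

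In the adherens junction, E-cadherin and PLEKHA7 mRNA fell steeply while the p120-catenin count did not pass the test. CDH1 was 32.6, 15.8 and 29.9 CPM in the shNT libraries, 1.73, 1.52 and 2.2 in shGLO1#1 and 0.548, 0.503 and 0.496 in shGLO1#2. No library of a clone reached the lowest control library, and the libraries of the clones did not overlap either. Relative to shNT, its log2 fold change came to -3.85 in shGLO1#1 (SE 0.26 with adjusted p = 1.29e-07), a 14.4-fold lower level, and -5.64 in shGLO1#2 (SE 0.33 with adjusted p = 4.25e-08), which is 49.95-fold lower. CDH1 was also lower in shGLO1#2 than in shGLO1#1, by 3.46-fold (log2 fold change -1.79, SE 0.47 with adjusted p = 0.00651). The shGLO1#2 values rest on 8 or 9 counts per library. In bulk RNA, fewer cells that express a gene and less RNA per cell cannot be told apart.

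PLEKHA7, the junctional partner of p120-catenin, was 233, 179 and 261 CPM in shNT, 49.1, 54.7 and 75.9 in shGLO1#1 and 41.4, 40.8 and 55.3 in shGLO1#2. All control libraries lay above all libraries of the clones, and the clones overlapped each other. PLEKHA7 fell 3.75-fold in shGLO1#1 (log2 fold change -1.91, SE 0.16 with adjusted p = 8.89e-07) and 4.91-fold in shGLO1#2 (-2.30, SE 0.17 with adjusted p = 3.42e-07). Between the clones its log2 fold change was -0.39 (adjusted p = 0.0762). CTNND1 was 3.90, 3.91 and 3.76 CPM in shNT, 2.72, 4.68 and 4.56 in shGLO1#1 and 3.23, 3.18 and 3.54 in shGLO1#2, with log2 fold changes of 0.06 and -0.22 (adjusted p = 0.839 and 0.429). The count data list the readthrough gene TMX2-CTNND1 at 0 in every library. HTSeq can set aside reads on exons that 2 genes share, so the CTNND1 counts may be incomplete.

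In the tight junction, LSR fell in shGLO1#1, TJP3 fell in shGLO1#2 and claudin-1 parted the clones. Of the 9 genes with enough counts, 2 were called against shNT in shGLO1#1 (CLDN1 and LSR) and 1 in shGLO1#2 (TJP3), each lower. These are 22.2 and 11.1% of the 9, beside 8.73 and 7.68% of all genes tested. The 1 call in shGLO1#2 is thus near the share of all genes. LSR, a receptor that recruits tricellulin to corners where cells meet, was 67.7, 63.7 and 51.6 CPM in shNT, 24.8, 24.7 and 24.0 in shGLO1#1 and 42.0, 37.9 and 37.9 in shGLO1#2. The groups did not overlap. LSR fell 2.48-fold in shGLO1#1 (log2 fold change -1.31, SE 0.10 with adjusted p = 2.01e-07). In shGLO1#2 it was at -0.63 (SE 0.09 with adjusted p = 1.07e-04), within the fold change limit.

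CLDN1, the main claudin of the epidermal barrier, was 4.37, 3.52 and 4.32 CPM in shNT, 1.67, 1.96 and 1.88 in shGLO1#1 and 7.0, 8.26 and 7.94 in shGLO1#2, so that the control libraries lay between those of the clones with no overlap. Relative to shNT, its log2 fold change came to -1.14 in shGLO1#1 (SE 0.18 with adjusted p = 1.42e-04) and 0.92 in shGLO1#2 (SE 0.15 with adjusted p = 2.24e-04), short of the limit of 1. Between the clones CLDN1 was 4.19-fold higher in shGLO1#2 (log2 fold change 2.07, SE 0.16 with adjusted p = 4.01e-07). The means of cingulin stood in the same order. CGN was 4.50, 6.26 and 5.20 CPM in shNT, 2.78, 2.61 and 3.31 in shGLO1#1 and 6.70, 7.65 and 6.21 in shGLO1#2, where the control and shGLO1#2 libraries overlapped slightly and the shGLO1#1 libraries lay below both. It was 2.36-fold higher in shGLO1#2 than in shGLO1#1 (log2 fold change 1.24, SE 0.17 with adjusted p = 5.42e-05), with -0.88 and 0.37 against shNT (adjusted p = 0.00115 and 0.0875).

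TJP3, the ZO-3 scaffold, was 2.08, 1.17 and 1.49 CPM in shNT, 1.73, 1.8 and 1.37 in shGLO1#1 and 0.487, 0.391 and 0.621 in shGLO1#2. It was lower in shGLO1#2 alone, with log2 fold changes of -1.65 against shNT (SE 0.32 with adjusted p = 0.00103) and -1.70 against shGLO1#1 (SE 0.31 with adjusted p = 6.02e-04). No shGLO1#2 library reached the others. The scaffold ZO-1 (TJP1) was 148, 143 and 148 CPM in shNT, 111, 116 and 123 in shGLO1#1 and 112, 119 and 123 in shGLO1#2. It was lower by a small amount in each clone, with log2 fold changes of -0.32 (SE 0.06 with adjusted p = 3.83e-04) and -0.31 (SE 0.06 with adjusted p = 6.38e-04). Occludin (OCLN) was 48.8, 44.7 and 43.2 CPM in shNT, 31.0, 30.8 and 29.9 in shGLO1#1 and 35.4, 34.1 and 31.3 in shGLO1#2, with log2 fold changes of -0.57 (adjusted p = 3.26e-05) and -0.44 (adjusted p = 3.70e-04). Neither occludin nor ZO-1 overlapped between shNT and a clone, and neither passed the fold change limit.

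Claudin-4, a claudin that limits ion passage, was 109, 91.9 and 70.3 CPM in shNT, 56.3, 55.3 and 46.6 in shGLO1#1 and 94.7, 77.7 and 65.7 in shGLO1#2, lowest in shGLO1#1 at a log2 fold change of -0.77 (SE 0.15 with adjusted p = 8.05e-04) and overlapping shNT in shGLO1#2 (-0.18, adjusted p = 0.352). Claudin-7 was 38.5, 27.8 and 23.1 CPM in shNT, 38.9, 37.0 and 30.9 in shGLO1#1 and 50.4, 30.4 and 31.4 in shGLO1#2, where all groups overlapped (adjusted p = 0.302 and 0.208). The junctional adhesion molecule A (F11R) was 149, 119.7 and 124 CPM in shNT, 120.4, 116 and 107 in shGLO1#1 and 134, 112 and 107 in shGLO1#2, with log2 fold changes of -0.19 (SE 0.09) and -0.15 (SE 0.09). Its groups overlapped and no difference from shNT passed the test (adjusted p = 0.108 and 0.220). CLDN3 had 1 to 6 counts per library and was not tested.

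All 6 desmosome genes had enough counts, and desmoplakin and desmoglein-2 showed the clearest differences. DSP, with E-boxes in the promoter shown above, was 346, 350.0 and 348 CPM in shNT, 281, 287 and 265 in shGLO1#1 and 129.6, 155 and 123 in shGLO1#2. The control libraries were almost level, and each group lay below the one before. DSP was 2.56-fold lower in shGLO1#2 than in shNT (log2 fold change -1.36, SE 0.07 with adjusted p = 2.81e-08), and at -0.32 in shGLO1#1 (SE 0.07 with adjusted p = 0.00226). Between the clones the log2 fold change was -1.03 (SE 0.07 with adjusted p = 1.74e-07), and it came to -0.999 without shGLO1#2 replicate 1 and -0.96 without shGLO1#2 replicate 3, where the call ended.

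DSG2, the desmosomal cadherin of simple epithelia, was 388, 369 and 383 CPM in shNT, 235, 244 and 226 in shGLO1#1 and 185, 225 and 195 in shGLO1#2. It was below every control library in each clone, with log2 fold changes of -0.70 (SE 0.07 with adjusted p = 2.17e-06) and -0.91 (SE 0.07 with adjusted p = 3.42e-07), short of the limit. DSC2 was 16.2, 14.6 and 15.3 CPM in shNT, 14.9, 12.9 and 11.2 in shGLO1#1 and 12.3, 11 and 8.63 in shGLO1#2, with log2 fold changes of -0.25 (adjusted p = 0.154) and -0.53 (adjusted p = 0.00775), the former overlapping shNT and the latter not. Among the plaque proteins, PKP2 was 148, 128 and 141 CPM in shNT, 87.4, 89.8 and 106 in shGLO1#1 and 95.2, 93.3 and 113 in shGLO1#2, lower in each clone without overlap (-0.56 and -0.47, adjusted p = 1.93e-04 and 9.19e-04).

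PKP3 was 25.5, 23.1 and 19.8 CPM in shNT, 16.8, 20.9 and 21.6 in shGLO1#1 and 18.6, 18.3 and 18.5 in shGLO1#2, with log2 fold changes of -0.20 and -0.30 (adjusted p = 0.158 and 0.0486). Plakoglobin (JUP), which serves both desmosomes and adherens junctions, was 85.1, 55.5 and 61.2 CPM in shNT, 55.9, 57.4 and 45.7 in shGLO1#1 and 85.6, 55.2 and 66.5 in shGLO1#2. Its libraries of all groups overlapped (adjusted p = 0.105 and 0.878).

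**Figure D3:**
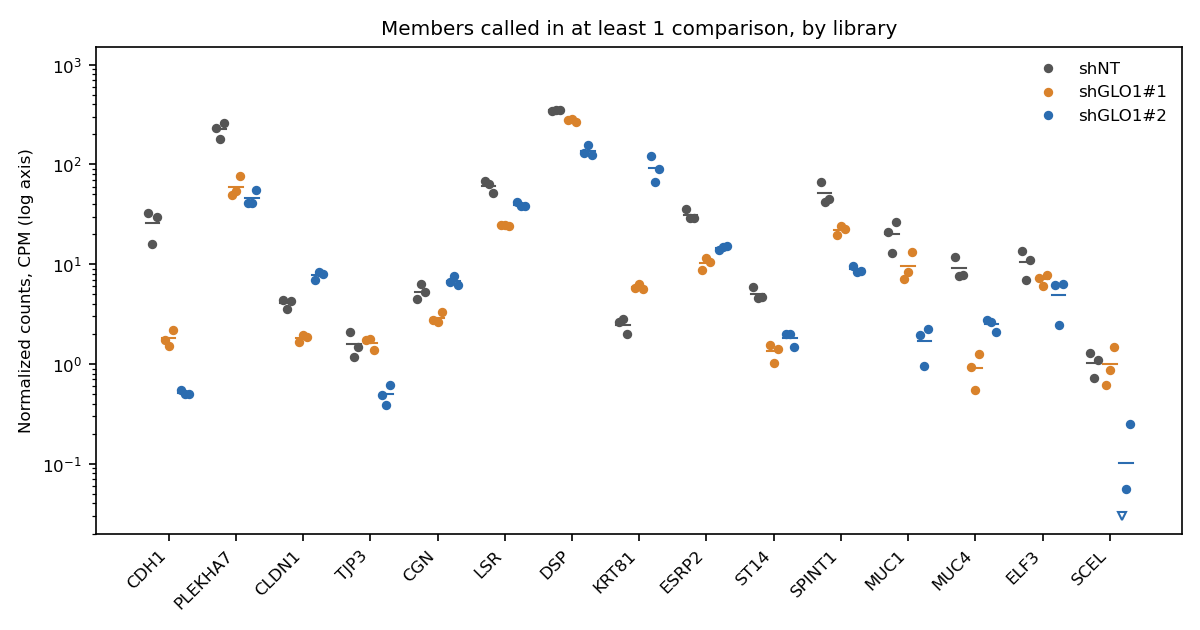
CPM (y axis, log scale) in each of the 9 libraries for the 15 members called in at least 1 of the 3 comparisons (x axis), with points for libraries and bars for group means in shNT (grey), shGLO1#1 (orange) and shGLO1#2 (blue), and an open triangle for a library with no count. KRT81 in shGLO1#2 lies at 66.6 to 121 CPM, above 1.99 to 2.80 in shNT, while CDH1 lies at 0.496 to 0.548 CPM, below 15.8 to 32.6.

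The simple epithelial keratins stayed abundant in all libraries, and the hair keratin KRT81 rose. Per kilobase of exon (lengths of merged exons in GENCODE 29), the leading members in shNT were KRT18 at 259.9 CPM per kb, KRT7 at 247, KRT19 at 185, KRT8 at 156 and KRT80 at 67.5. DSG2 (61.5), the protease inhibitor SPINT2 (55.7) and DSP (34.5) came next, while CDH1 was at 4.22 and ESRP1 at 0.0916. These lengths are approximate, since the annotation behind the counts is not known here.

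**Figure D4:**
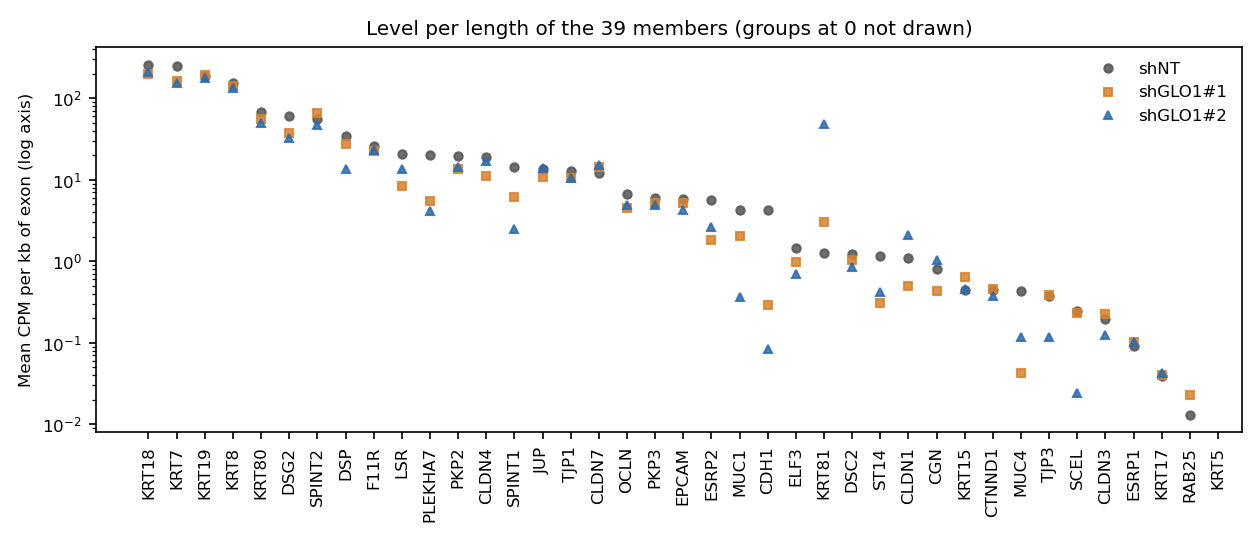
Mean CPM per kilobase of exon (y axis, log scale) of the 39 members (x axis), ordered by their level in shNT, for shNT (circles), shGLO1#1 (squares) and shGLO1#2 (triangles). Keratins KRT18, KRT7, KRT19 and KRT8 lead in every group at 133 to 260 CPM per kb, and KRT81 stands out in shGLO1#2 at 47.8 beside 1.28 in shNT.

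KRT81, a type II keratin of hair that is also found in breast cancer cells, was 2.62, 2.80 and 1.99 CPM in shNT, 5.74, 6.31 and 5.59 in shGLO1#1 and 121, 66.6 and 89.4 in shGLO1#2. The groups stood in this order with no overlap. It rose 2.40-fold in shGLO1#1 (log2 fold change 1.26, SE 0.29 with adjusted p = 0.00270) and 37.5-fold in shGLO1#2 (5.23, SE 0.22 with adjusted p = 6.54e-09), and it was 15.6-fold higher in shGLO1#2 than in shGLO1#1 (3.97, SE 0.20 with adjusted p = 1.20e-08). KRT86, a close relative next to KRT81 in the type II keratin cluster of chromosome 12, went the same way. Its mean was 0.934 ± 0.213 CPM (SD, n = 3) for shNT, 2.76 ± 0.440 for shGLO1#1 and 7.29 ± 1.77 for shGLO1#2, with log2 fold changes of 1.56 (SE 0.28 with adjusted p = 5.07e-04) and 2.95 (SE 0.25 with adjusted p = 1.12e-06). KRT81 and KRT86 are near-identical in sequence, so reads of one may have been counted to the other or set aside as not unique, and the values of both are uncertain.

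KRT7 was 1151, 887 and 998 CPM in shNT, 482, 726 and 775 in shGLO1#1 and 647, 541 and 695 in shGLO1#2, lower in each clone without overlap (-0.61, SE 0.15 with adjusted p = 0.00384; -0.69, SE 0.15 with adjusted p = 0.00210). KRT18 was 922, 773 and 815 CPM in shNT, 543, 679 and 699 in shGLO1#1 and 671, 669.5 and 689.6 in shGLO1#2, with log2 fold changes of -0.39 (adjusted p = 0.00234) and -0.31 (adjusted p = 0.0118) and no overlap with shNT. Its type II partner KRT8 was 1194, 1011 and 1015 CPM in shNT, 860.2, 1051 and 1019 in shGLO1#1 and 944, 876 and 932 in shGLO1#2, with -0.14 (adjusted p = 0.180) and -0.23 (adjusted p = 0.0373). KRT8 overlapped shNT in shGLO1#1, and none of these 3 passed the fold change limit.

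KRT19 was 502, 408 and 389.8 CPM in shNT, 423, 499 and 420.5 in shGLO1#1 and 479, 381 and 379.8 in shGLO1#2. Its groups overlapped, and its log2 fold changes were 0.05 (SE 0.11) and -0.07 (SE 0.11), near 0. KRT80 was 335, 248 and 299 CPM in shNT, 196, 260.0 and 271 in shGLO1#1 and 213, 202 and 243 in shGLO1#2 (-0.28, adjusted p = 0.0765; -0.42, adjusted p = 0.0133). Of the keratins of basal cells, KRT15 was at 2.67 to 3.38 CPM in shNT, 4.16 to 5.25 in shGLO1#1 and 2.79 to 3.52 in shGLO1#2, and its log2 fold change was 0.53 in shGLO1#1 (adjusted p = 0.0230). KRT17 had 0 to 6 counts per library. KRT5 had 0 counts in all 9 libraries, which allows up to 0.0621 CPM in shNT (3 counts over the group, counting error only).

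Among the splicing factors, ESRP2 fell in each clone and ESRP1 was close to absent. ESRP2 was 35.9, 29 and 29.1 CPM in shNT, 8.70, 11.5 and 10.4 in shGLO1#1 and 13.9, 14.9 and 15.1 in shGLO1#2. The 3 groups did not overlap, and shGLO1#1 was the lowest. ESRP2 fell 3.05-fold in shGLO1#1 (log2 fold change -1.61, SE 0.12 with adjusted p = 2.09e-07) and 2.14-fold in shGLO1#2 (-1.10, SE 0.11 with adjusted p = 6.04e-06). The latter came to -0.99 without shNT replicate 1, just short of the limit. ESRP1 had 4 to 12 counts per library in every group and was not tested. Of 8 other splicing regulators, among them RBM47, QKI and RBFOX2, all were tested and 0 passed both limits in any comparison, by edgeR's test and by DESeq2. By adjusted p alone, 2 were higher and 4 lower in shGLO1#1, beside 22.6 and 23.1% of all genes. In shGLO1#2, 1 was higher and 2 were lower than in shNT, beside 18.3 and 19.8%. Between the clones, 2 were higher and 2 lower in shGLO1#2, beside 22.8 and 23.7%. The largest log2 fold change was 0.97 in size. The counts are per gene and hold no isoforms, so splicing itself was not analysed here.

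Matriptase (ST14), a surface protease, and its Kunitz-type inhibitor HAI-1 (SPINT1) fell in the clones, while the related inhibitor HAI-2 (SPINT2) did not pass the fold change limit. SPINT1, whose promoter is rich in CpG, was 66.6, 42.1 and 45.5 CPM in shNT, 19.4, 24.1 and 22.4 in shGLO1#1 and 9.62, 8.43 and 8.50 in shGLO1#2. The 3 groups were apart. It fell 2.33-fold in shGLO1#1 (log2 fold change -1.22, SE 0.15 with adjusted p = 1.72e-05), with -0.99 without shNT replicate 1, and 5.80-fold in shGLO1#2 (-2.53, SE 0.16 with adjusted p = 1.12e-07). It was also 2.49-fold lower in shGLO1#2 than in shGLO1#1 (-1.31, SE 0.17 with adjusted p = 3.02e-05). ST14 was 5.91, 4.63 and 4.65 CPM in shNT, 1.54, 1.03 and 1.43 in shGLO1#1 and 2.01, 2.01 and 1.49 in shGLO1#2, below every control library in each clone. Its log2 fold changes were -1.92 (SE 0.21 with adjusted p = 8.44e-06) and -1.45 (SE 0.20 with adjusted p = 7.74e-05), and 0.47 between the clones (adjusted p = 0.130). SPINT2 was 304, 268 and 297 CPM in shNT, 322, 341 and 355 in shGLO1#1 and 264, 216 and 249.6 in shGLO1#2, above shNT in shGLO1#1 (0.23, adjusted p = 0.0207) and below it in shGLO1#2 (-0.25, adjusted p = 0.0146).

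The membrane mucins fell in each clone but to different depths. MUC1, with adjoining E-boxes in its promoter, was 20.8, 13.0 and 26.4 CPM in shNT, 7.10, 8.32 and 13.1 in shGLO1#1 and 1.95, 0.949 and 2.23 in shGLO1#2. The shGLO1#2 libraries were far below the rest, whereas shGLO1#1 replicate 3 reached the lowest control library. MUC1 fell 11.9-fold in shGLO1#2 (log2 fold change -3.57, SE 0.33 with adjusted p = 2.41e-06) and 2.12-fold in shGLO1#1 (-1.08, SE 0.26 with adjusted p = 0.00395). The call in shGLO1#1 ended without shNT replicate 3 (-0.82) and without shGLO1#1 replicate 1 (-0.91) or 2 (-0.99). MUC4, with none, was 11.9, 7.63 and 7.81 CPM in shNT, 0.926, 0.544 and 1.25 in shGLO1#1 and 2.74, 2.62 and 2.11 in shGLO1#2, the opposite order of the clones. It fell 9.98-fold in shGLO1#1 (-3.32, SE 0.27 with adjusted p = 5.29e-07) and 3.63-fold in shGLO1#2 (-1.86, SE 0.23 with adjusted p = 2.56e-05). Between the clones MUC1 was 5.62-fold lower (-2.49, SE 0.35 with adjusted p = 6.97e-05) and MUC4 2.75-fold higher (1.46, SE 0.31 with adjusted p = 0.00180) in shGLO1#2. EPCAM, an epithelial adhesion molecule, was 14, 15.5 and 14.3 CPM in shNT, 13.1, 13.8 and 12.6 in shGLO1#1 and 9.56, 11.7 and 10.8 in shGLO1#2 (-0.15, adjusted p = 0.263; -0.45, adjusted p = 0.00400).

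ELF3, an epithelial transcription factor of the ETS family, was 13.4, 6.98 and 11.1 CPM in shNT, 7.28, 5.98 and 7.87 in shGLO1#1 and 6.15, 2.46 and 6.27 in shGLO1#2. Control and shGLO1#2 libraries did not overlap, though 2 shGLO1#2 libraries lay close to the lowest control library. Relative to shNT it stood at -1.09 on the log2 scale in shGLO1#2 (SE 0.29 with adjusted p = 0.00849) and -0.58 in shGLO1#1 (adjusted p = 0.104). The call in shGLO1#2 ended without shNT replicate 1 (-0.89) and without shGLO1#2 replicate 2 (-0.75). SCEL, a precursor of the cornified envelope, was 1.28, 0.717 and 1.11 CPM in shNT, 0.617, 0.870 and 1.48 in shGLO1#1 and 0, 0.0558 and 0.248 in shGLO1#2. It was lower in shGLO1#2 alone (log2 fold change -3.29, SE 0.65), where it rested on 5 counts in all, with -3.23 against shGLO1#1 (SE 0.64). SCEL was near the limit on low counts and passed it only through shNT and shGLO1#1, where it is higher. Its values are thus a description with no test. RAB25, a GTPase of epithelial recycling, had at most 1 count in any library. For ELF3, 18.5% of the GENCODE 29 exon length is shared with other genes, ELF3-AS1 among them. Such a share was 5.62% for CDH1, 4.01% for ESRP2, 3.42% for SCEL, 2.82% for SPINT1 and 1.02% for MUC1, and among genes not called it was 36.6% for F11R, 16.3% for KRT18 and 12.3% for CLDN7. Reads of antisense partners cannot be separated here.

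The libraries within a group differed in these genes, the control libraries among them. Of the 34 tested, 23 (67.6%) were lowest in shNT replicate 2 among the shNT libraries, beside 28.8% of all genes tested, and 25 (73.5%) were highest in shNT replicate 1, beside 34.9%. Among the 13 called lower in a clone, 11 were lowest in replicate 2 and 10 highest in replicate 1. CDH1 in replicate 2 was at 0.605 of the shNT mean, MUC1 at 0.649, ELF3 at 0.665 and SCEL at 0.694. DSP and LSR were not lowest in replicate 2. Within shGLO1#2, 17 of the 34 (50%) were lowest in its replicate 2, beside 28.9% of all genes. Within shGLO1#1, 5 (14.7%) were lowest in replicate 2 and 15 (44.1%) in replicate 1, beside 28.3 and 34.7%. Members are not independent of each other, so no test was made of these counts. At a mean of 10 CPM or more in shNT, the median coefficient of variation was 12.6% for 25 members and 6.09% for 9483 genes. In shGLO1#1 it was 10.6 and 4.90%, and in shGLO1#2 10.6 and 6.37%. Without shNT replicate 2, again 10 members were called in shGLO1#1 and 12 in shGLO1#2. Without shNT replicate 1 there were 9 and 10, where SPINT1 in shGLO1#1 (-0.99) and ESRP2 (-0.99) and ELF3 (-0.89) in shGLO1#2 were short of the fold change limit.

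**Figure D5:**
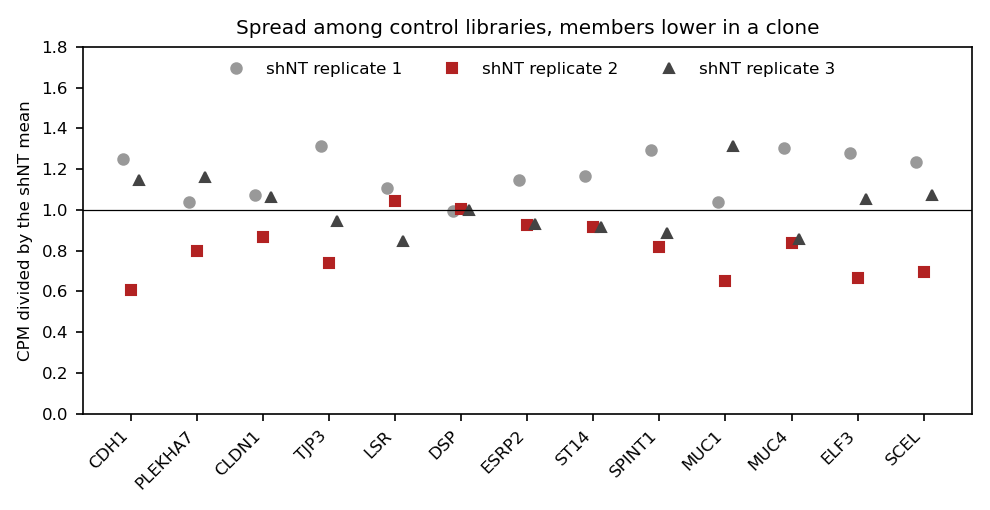
CPM of each shNT library divided by the mean of the 3 shNT libraries (y axis) for the 13 members called lower in a clone (x axis), with circles for replicate 1, squares for replicate 2 and triangles for replicate 3. Replicate 2 is the lowest for 11 of the 13, from 0.605 for CDH1, and for DSP the 3 libraries nearly coincide.

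Other genes of the same structures, taken from a list of 116 that the count data hold, moved both ways. Of these, 68 had enough counts. In shGLO1#1, 7 were higher and 7 lower, and in shGLO1#2 also 7 and 7, which is 10.3% in each direction beside 5.98% higher and 2.75% lower, and 5.09 and 2.59%, of all genes. Their median log2 fold change was -0.05 in shGLO1#1 and -0.10 in shGLO1#2. MAL2, a protein of apical transport, fell from 258 ± 30.0 CPM to 42.3 ± 3.74 in shGLO1#1 and to 59.0 ± 7.50 in shGLO1#2 (each a mean ± SD of n = 3), or by log2 fold changes of -2.61 (SE 0.10 with adjusted p = 2.25e-09) and -2.13 (SE 0.10 with adjusted p = 1.15e-08). PRSS8 encodes prostasin, a protease that acts with matriptase. It fell from 2.32 ± 0.553 to 0.740 ± 0.217 and 0.618 ± 0.287 CPM (-1.62 and -1.89, adjusted p = 8.80e-04 and 4.54e-04). MYO5B, a motor of recycling endosomes, fell from 19.6 ± 0.559 to 9.71 ± 0.541 and 5.54 ± 2.43 CPM (-1.01 and -1.81, adjusted p = 0.00110 and 2.02e-05). Its call in shGLO1#1 ended with no scaling factor (-0.94), without shNT replicate 3 (-0.98) and without shGLO1#1 replicate 1 (-0.97).

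In the other direction, CD24, a surface glycoprotein of epithelial and stem-like cells, rose from 1.62 ± 0.638 CPM to 13.1 ± 2.38 in shGLO1#1 and to 10.7 ± 1.54 in shGLO1#2 (SD, n = 3 each; log2 fold changes 3.01 and 2.73, adjusted p = 2.65e-07 and 1.07e-06). The study singled out CD24 on these same libraries, so its rise is not independent of that choice. PVRL3, the nectin-3 of adherens junctions, rose from 29.9 ± 1.81 to 60.6 ± 3.93 and 63.0 ± 4.55 CPM (1.02 and 1.07, adjusted p = 3.13e-07 and 3.37e-07), with 0.97 in shGLO1#1 without shNT replicate 1 and 0.96 without shGLO1#1 replicate 3. The polarity kinase PRKCZ fell in shGLO1#1, from 30.7 ± 3.06 to 5.88 ± 0.732 CPM (-2.38, SE 0.12 with adjusted p = 1.17e-08), and was at 19.7 ± 1.21 in shGLO1#2 (-0.64, within the limit). PROM2, a cholesterol-binding membrane protein, had 9 counts in shNT, 128 in shGLO1#1 and 22 in shGLO1#2 over the 3 libraries of each. It passed the limit on low counts through shGLO1#1, where it is high, so these counts are a description with no test.

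P-cadherin (CDH3) had 5 counts in shNT, 14 in shGLO1#1 and 77 in shGLO1#2. CLDN11, the claudin of myelin, had 1 count in shNT, 3 in shGLO1#1 and 48 in shGLO1#2 over the 3 libraries of each. Both passed the limit on low counts through shGLO1#2, where they are high, and get no test here either. In shGLO1#2, KRT34, another hair keratin, rose to 2.74 ± 0.241 from 0.817 ± 0.432 CPM (1.72, SE 0.30 with adjusted p = 4.80e-04). GRHL3, a grainyhead factor of epithelial barriers, averaged 0.865 ± 0.361 CPM for shNT, 0.381 ± 0.312 for shGLO1#1 and 0.0782 ± 0.0290 for shGLO1#2, on 42, 20 and 4 counts. Its log2 fold changes against shNT were -1.16 and -3.34. GRHL3 passed the limit on low counts mainly through shNT, where it is highest, so these values are a description with no test. In shGLO1#1 its log2 fold change was -1.14 with the replicate number as a block, -1.46 without shNT replicate 2 and -2.06 without shGLO1#1 replicate 3. It passed both limits in these runs, which share the same dependence on shNT and so are no test either. Of these 68 genes, 6 were higher and 6 lower in shGLO1#2 than in shGLO1#1, which is 8.82% each way beside 3.33 and 3.75% of all genes.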

How the data were processed

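TruSeq RNA libraries were made from total RNA of 9 samples. Reads were produced with bcl2fastq 2.17 and aligned with TopHat2 2.1.1 (build hg19), per the submitters' processing notes. The authors deposited HTSeq counts per gene symbol, raw and not normalized. HTSeq's version, annotation and strand setting: not given in the sources used here. Alignments on no gene (12.8 to 15.2%), ambiguous ones (1.50 to 1.95%) and non-unique ones (5.76 to 6.15%) stayed out of library sizes. No library was a copy (within groups, chi-square over degrees of freedom was 3.06 to 8.45).

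All groups entered 1 quasi-likelihood model of edgeR 4.0.16 (R 4.3.3) after filterByExpr at its defaults (10 counts, 15 in total) and TMM scaling. P-values had Benjamini-Hochberg adjustment over the 13704 genes tested. SE means log2 fold change over the root of F, in absolute size. The scripts were tested on simulated data. Alternatives were DESeq2 1.42.0, other size factors, filters and groups, a replicate block and omission of single libraries. The deviations of same-numbered libraries from their group means correlated weakly between shGLO1#2 and shNT (r = 0.21, 0.19 and 0.31 across genes). Between shGLO1#1 and shNT r was -0.034, 0.056 and 0.25, and between the clones 0.20, 0.069 and 0.34. Libraries with unlike numbers were not compared, so whether the numbers mark pairs was not tested.

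Members and lists were chosen with earlier results of these data known. Members called in any comparison, or at a group mean of 10 CPM or more, were described by library, the others by counts. Of the further genes, at most 12 called in one direction in each clone were named, then at most 6 others. The sources do not say whether libraries of a clone came from separate cultures. Exon lengths come from GENCODE 29 and promoters from RefSeq, matched by symbol, and their GRCh38 coordinates were not joined with hg19.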

Additional observations from a re-analysis of the deposited data

Results flagged for a closer look

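The change against shNT differed between the GLO1-depleted clones for 10 members, since the clones differed from each other by edgeR's test past both limits. The log2 fold change of shGLO1#2 against shGLO1#1 was -1.79 for CDH1, -1.31 for SPINT1 and -2.49 for MUC1, which were lower in each clone and lowest in shGLO1#2. It was 1.46 for MUC4, which was lower in each clone and lowest in shGLO1#1. For KRT81, higher in each clone, it was 3.97. TJP3 (-1.70), SCEL (-3.23) and DSP (-1.03) were called lower in shGLO1#2 and not in shGLO1#1, though the call of DSP between the clones ended without shGLO1#2 replicate 1 or 3. SCEL passed the limit on low counts only through the groups where it is higher, so its difference is a description with no test. CLDN1 (2.07) and CGN (1.24) were below shNT in shGLO1#1 and not in shGLO1#2. Groups of 3 libraries are too small for a test of single libraries that stand apart.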

How the results depend on the processing

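The numbers of members called were the same with DESeq2's size factors, with no scaling factor, with the DESeq2 test, with no filter on low counts, in fits of the compared groups alone and with the replicate block (10 in shGLO1#1, 12 in shGLO1#2 and 10 between the clones). A filter at a mean of 1 CPM gave 10, 11 and 9, since SCEL then left the test. Leaving out a library gave 9 to 10, 10 to 12 and 9 to 10. With no fold change limit, 21, 26 and 17 members were called (beside 45.7, 38.1 and 46.5% of all genes), and 41, 36 and 40 of the further epithelial genes in place of 14, 14 and 12. With the replicate block the further genes called were 15, 14 and 12, and beside GRHL3 in shGLO1#1 the block changed no call. Leaving out shGLO1#2 replicate 1 put PROM2, which gets no test here, past both limits in shGLO1#2 (1.48). Leaving out shGLO1#2 replicate 2 added MYO5B between the clones (-1.08). The 60 calls of single genes counted here include those of GLO1, the target of the shRNA. They also include those of SCEL, GRHL3, CDH3, CLDN11 and PROM2, which get no test here, so the numbers are no support for these genes. Of the 60 calls, 52 held in all the alternatives that gave them a value. The rest (ESRP2, ELF3, DSP, SPINT1, MUC1, MYO5B and PVRL3, given beside their values, and GRHL3 between the clones) each ended in at least 1, where the cause was not tested. GRHL3 between the clones, a description with no test as above, was at -2.17. It did not pass both limits with DESeq2 and without shGLO1#1 replicate 3 or any shGLO1#2 library. No called change reversed. Values near 0 that were not called changed sign. With no scaling factor these were SCEL in shGLO1#1 (0.0152) and, between the clones, TJP1 (-0.0376) and F11R (-0.0112). When a library was left out, the log2 fold changes that crossed 0 ranged as follows. For shGLO1#1 against shNT they were SCEL (-0.46 to 0.18), TJP3 (-0.12 to 0.28), KRT19 (-0.039 to 0.16) and CTNND1 (-0.076 to 0.26). For shGLO1#2 against shNT they were KRT19 (-0.18 to 0.049), JUP (-0.14 to 0.24) and KRT15 (-0.059 to 0.13). For shGLO1#2 against shGLO1#1 they were TJP1 (-0.022 to 0.052), F11R (-0.061 to 0.10), KRT18 (-0.027 to 0.15), CLDN7 (-0.20 to 0.21), KRT7 (-0.26 to 0.055) and PKP2 (-0.0019 to 0.18). Depth limits the low genes, since CLDN3, ESRP1, KRT5, KRT17 and RAB25 had too few counts to be tested, and SCEL and CDH1 in shGLO1#2 rest on 5 and 26 counts.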
